A study of Mus musculus with 2 samples.

Results

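Proteasome genes were examined in RNA of ventral midbrain tissue from mice aged 2 months, with 1 Ctrl-labelled and 1 OE-labelled library. Of the 31252 gene rows, 50 had a symbol that starts with Psm, a letter from a to g and a digit. One of these, Psmc3ip, encodes a protein of meiotic recombination and is not a proteasome gene. The other 49 were sorted by the role of their protein into the 20S core (14 genes), the immune subunits (3), the 19S cap (17), the activators (5), the inhibitor Psmf1, the assembly chaperones of the cap (3) and of the core (4), and 2 subunits known from testis and thymus.

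Mice of the OE group carried Slc6a3-Cre and the CAG-S-COUP-TFII allele, in which Cre switches on COUP-TFII from the CAG promoter, and Ctrl mice carried Slc6a3-Cre alone. Slc6a3 encodes the dopamine transporter, so Cre and with it the allele are confined to DA neurons, while the tissue also holds other neurons, glia and vessels. The strain was an incipient congenic C57BL/6. In the breeding described by the study, Ctrl and OE littermates also inherited a tdTomato reporter and 1 floxed copy of Tfam, the gene of a mitochondrial transcription factor, so that Cre can remove that copy in the DA neurons of either group. Whether the sequenced mice came from that cross, and how many mice stand behind a library, is not given in the sources used here.

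The proteasome is the protease that degrades proteins tagged with ubiquitin. Its barrel-shaped 20S core has outer rings of alpha subunits and inner rings of beta subunits, of which Psmb5, Psmb6 and Psmb7 carry the active sites. The 19S cap binds ubiquitin chains, and its ring of ATPases unfolds the substrate and feeds it into the core. Interferon induces Psmb8, Psmb9 and Psmb10, which replace Psmb5, Psmb6 and Psmb7 in newly made cores and favour the cutting of peptides for MHC class I molecules. Impaired protein degradation by the proteasome has long been discussed in Parkinson's disease.

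The depth was 16984336 expected counts for the Ctrl-labelled library and 21326632 for the OE-labelled one. With 1 library per group, no difference has a replicate check and no test across mice was possible. Each log2 ratio is OE over Ctrl, by the labels, after TMM scaling, and each interval is a 95% Clopper-Pearson interval that covers counting error only. Nr2f2, the mouse gene for COUP-TFII, had 637 counts under the Ctrl label and 377 under the OE label, or -1.07 (interval -1.26 to -0.88) as a log2 ratio. The gene that the OE label names thus goes against that label, and each direction below follows the labels as given. Whether labels or columns were exchanged, which would turn every direction, was not tested. The origin of the coding sequence in the allele is not given in the sources used here, and whether its reads are counted under Nr2f2 was not tested. The labels name DA neurons as the cell type, but the libraries are of whole tissue: Mbp of oligodendrocytes had 128974 and 139810 counts, against 2499 and 9354 for Th of DA neurons. Markers of cell types and regions differed between the libraries as well. All 12 markers of DA neurons were higher in the OE-labelled library, with a median log2 ratio of 1.22, and all 5 thalamus markers were lower, with a median of -2.78. A change in the number of cells of a type and a change in RNA per cell cannot be told apart in such libraries. With 1 library per label, a difference in the tissue dissected cannot be told apart from a difference between the groups either. This holds for the markers, for Nr2f2 and for every value below.

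The promoters of the catalytic subunits other than Psmb7 are shown with that of Psmc5, the cap gene with the highest log2 ratio, because the comparison of constitutive and immune subunits rests on them. Each sequence is from RefSeq on GRCm38.p6, runs 5′ to 3′ on the strand of its gene, and covers 250 bases before to 50 bases from the annotated start site. Capitals mark TGACNNNGC in Psmb5 and Psmb6, the element bound by the antioxidant factors Nfe2l1 and Nfe2l2, of which Nfe2l1 is known to drive proteasome genes. In Psmb10 and Psmc5 they mark AGGTCA on the opposite strand, the hexamer bound by nuclear receptors such as COUP-TFII, and in Psmb8 they mark TTCNNNGAA, a motif of genes induced by interferon gamma. Psmb9 held none of these 3 motifs.
Psmb5, chr14:54617946-54618245, minus strand: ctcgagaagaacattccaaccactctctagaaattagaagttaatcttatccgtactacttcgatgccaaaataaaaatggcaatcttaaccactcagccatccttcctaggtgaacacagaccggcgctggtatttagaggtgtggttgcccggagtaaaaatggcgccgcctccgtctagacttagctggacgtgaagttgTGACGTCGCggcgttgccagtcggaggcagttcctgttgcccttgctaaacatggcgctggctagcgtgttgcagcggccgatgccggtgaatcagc
Psmb6, chr11:70525107-70525406, plus strand: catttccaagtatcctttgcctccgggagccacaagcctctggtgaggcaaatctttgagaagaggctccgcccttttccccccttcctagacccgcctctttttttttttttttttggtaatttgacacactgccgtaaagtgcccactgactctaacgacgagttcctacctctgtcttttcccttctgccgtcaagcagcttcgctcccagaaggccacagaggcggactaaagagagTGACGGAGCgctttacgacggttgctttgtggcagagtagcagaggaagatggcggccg
Psmb8, chr17:34197945-34198244, plus strand: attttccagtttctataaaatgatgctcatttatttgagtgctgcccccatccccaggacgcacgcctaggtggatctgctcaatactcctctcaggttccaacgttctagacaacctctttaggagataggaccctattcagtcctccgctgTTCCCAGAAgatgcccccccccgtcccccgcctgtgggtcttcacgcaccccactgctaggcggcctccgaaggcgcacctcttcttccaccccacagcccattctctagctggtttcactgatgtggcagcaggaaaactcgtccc
Psmb9, chr17:34187281-34187580, minus strand: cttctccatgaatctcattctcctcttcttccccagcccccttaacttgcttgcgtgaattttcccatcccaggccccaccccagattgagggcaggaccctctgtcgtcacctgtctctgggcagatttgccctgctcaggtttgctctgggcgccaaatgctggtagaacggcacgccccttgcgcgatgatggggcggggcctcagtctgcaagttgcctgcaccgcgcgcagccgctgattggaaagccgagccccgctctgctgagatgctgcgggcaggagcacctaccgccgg
Psmb10, chr8:105938343-105938642, minus strand: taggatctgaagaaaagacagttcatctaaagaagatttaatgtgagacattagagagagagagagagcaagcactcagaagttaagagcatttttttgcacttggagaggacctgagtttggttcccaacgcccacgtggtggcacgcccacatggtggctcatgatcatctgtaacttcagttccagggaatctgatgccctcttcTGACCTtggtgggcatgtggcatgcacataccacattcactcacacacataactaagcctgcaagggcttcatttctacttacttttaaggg
Psmc5, chr11:106255935-106256234, plus strand: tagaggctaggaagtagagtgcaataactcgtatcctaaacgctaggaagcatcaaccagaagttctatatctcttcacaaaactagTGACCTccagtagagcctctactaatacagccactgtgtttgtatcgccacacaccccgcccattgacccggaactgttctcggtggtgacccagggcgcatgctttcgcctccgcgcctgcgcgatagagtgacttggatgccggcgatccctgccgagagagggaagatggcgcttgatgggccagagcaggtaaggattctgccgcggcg
GENCODE M21 places the start of Psmb8 and Psmb9 further upstream than RefSeq does, at 34197721 and 34187764. By that annotation both windows lie wholly after the start of the gene. The motif begins at position -47 relative to the start site in Psmb5, -9 in Psmb6, -97 in Psmb8, -42 in Psmb10 and -163 in Psmc5.

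Proteasome genes as a whole were slightly higher in the OE-labelled library. They held 52431 counts, or 0.309% (interval 0.306% to 0.311%) of the Ctrl-labelled library, and 69074 counts, or 0.324% (0.321% to 0.326%), of the OE-labelled library. The log2 ratio of the summed counts was 0.084 (interval 0.068 to 0.10), and that of all genes summed was 0.015. A mean of at least 10 counts was reached by 47 of the 49 members, and their median log2 ratio was 0.084, against 0.0046 over all 15246 genes that reached it. By sign, 34 of the 47 were higher in the OE-labelled library, which is 72.3% where 51.0% of all genes were higher. The interval lay above 0 for 18 of them, or 38.3%, against 15.8% of all genes, and below 0 for 4, or 8.51%, against 14.4%. The markers of DA neurons were summed to 1460 and 3388 CPM (counts scaled to the same library total), those of thalamus to 250.1 and 40.8, and those of oligodendrocytes, all 10 lower, to 20778 and 17394, and their part in the proteasome values was not tested.

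Few members were past the log2 0.2 that the study used as its fold threshold. Psmb1, Psma7, Psmc5, Psmd12, Psme2, Psme2b and Psmg4 were higher by more than log2 0.2. These 7 are 14.9% of the members, and 17.9% of all genes were higher by as much, so the share of members past the threshold was near the background. Of the 7, all but Psme2b also had an interval above 0, as did 9.90% of all genes. Among the 43 members with a mean of 100 counts or more, 32 were higher by any amount, or 74.4% against 51.3% of genes so counted, and 5 by more than log2 0.2, or 11.6% against 13.0%. On the lower side, 2 members passed log2 -0.2, Psmb9 and Psmd10, or 4.26% against 16.6% of all genes. The split of 7 higher to 2 lower became 5 to 4 when the libraries were scaled by total counts and 9 to 1 with the upper quartile. The split over all 15246 genes moved the same way. It was 2723 higher to 2536 lower with TMM, 2525 to 2747 with total counts and 2929 to 2355 with the upper quartile.

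**Figure D1:**
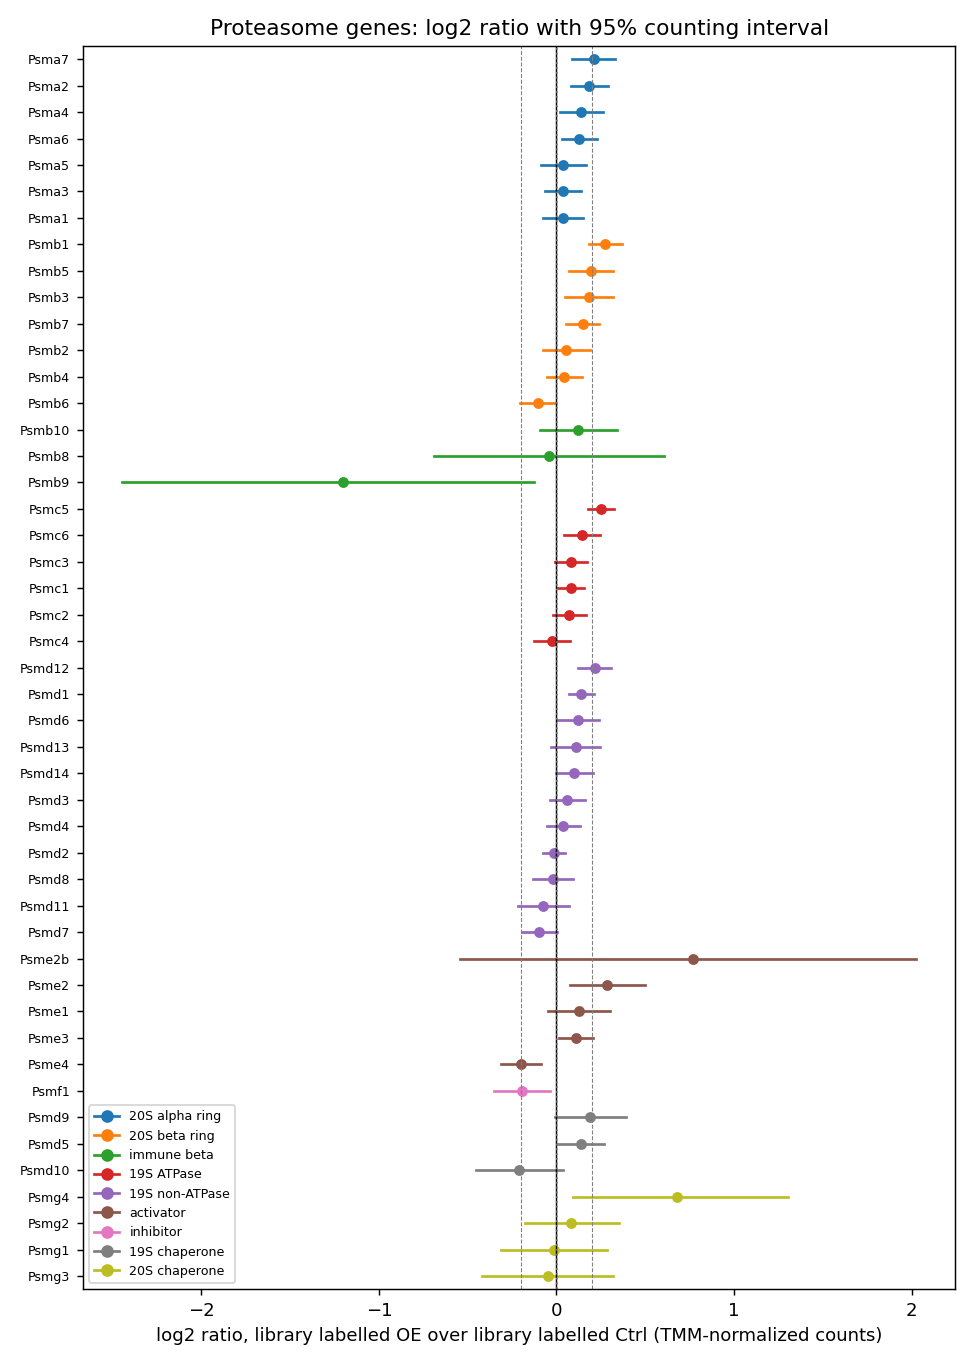
Log2 ratio of OE over Ctrl, by the labels (horizontal axis), for the 47 proteasome genes that averaged 10 counts or more, coloured by class. Points are log2 ratios, horizontal lines are 95% counting intervals, dashed lines mark log2 0.2 and -0.2, and the dotted line close to 0 marks the median of all genes. Most core and cap genes lie between 0 and 0.3, and the widest intervals belong to Psmb9, Psme2b, Psmb8 and Psmg4.

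In the 20S core, all 7 alpha subunits and 6 of 7 beta subunits were higher in the OE-labelled library. That is 92.9% of the core, against 51.0% of all genes, with a median log2 ratio of 0.13 over the 14 genes. The log2 ratio of their summed counts was 0.11 (interval 0.084 to 0.14). Alpha subunits form the outer rings, which gate the entrance of the barrel. Among them Psma7 had the highest log2 ratio, with 951 and 1366 counts (Ctrl label first, here and in the pairs of counts that follow), or 0.21 (0.089 to 0.33). Psma1 had the lowest, with 1155 and 1472 counts, or 0.037 (-0.075 to 0.15). The interval lay above 0 for Psma2, Psma4, Psma6 and Psma7 and held 0 for Psma1, Psma3 and Psma5.

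The beta subunits, which form the catalytic chamber, spread more widely. Psmb1, a structural beta subunit, had 1529 and 2298 counts, a log2 ratio of 0.27 (0.18 to 0.37), the highest of the core. Psmb6, which carries the caspase-like active site, had 1441 and 1667 counts and was the only core gene lower in the OE-labelled library, with a log2 ratio of -0.10 and an interval that ends at -0.00032. The other catalytic subunits differed from it in sign. Psmb5, which carries the chymotrypsin-like site, had 904 and 1285 counts, or 0.19 (0.070 to 0.32). Psmb7, which carries the trypsin-like site, had 1630 and 2245 counts, or 0.15 (0.056 to 0.24). Of the remaining beta subunits, Psmb3 had an interval above 0, and Psmb2 and Psmb4 had intervals that held 0. The counts of Psma3, Psma4, Psma5, Psmb3 and Psmb5 may be less certain than those of the other core genes. Of the 50-base words in their transcripts, 22.0% (Psma3) to 57.1% (Psmb5) occur in transcripts of other genes in GENCODE M21. Their expected counts were whole numbers in both libraries, however, as were those of all but 3 members, Psme2, Psme2b and Psmd7.

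The 19S cap had a median log2 ratio of 0.080 over 17 genes, and 12 of them were higher in the OE-labelled library (70.6%, against 51.0% of all genes). Its ATPases, the ring that unfolds substrates, gave a log2 ratio of 0.12 for their summed counts (0.082 to 0.15). Psmc5 was the highest cap gene, with 2715 and 4014 counts, or 0.25 (0.18 to 0.32), and Psmc4 the lowest ATPase, with 1428 and 1743 counts, or -0.026 (-0.13 to 0.076). Psmc1 and Psmc6 also had intervals above 0, and Psmc2 and Psmc3 had positive log2 ratios with intervals that held 0.

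Of the 11 other cap subunits, 7 were higher (63.6%, against 51.0% of all genes) and 4 lower in the OE-labelled library. Their summed counts differed by a log2 ratio of 0.056 (0.027 to 0.084). Psmd12, a scaffold subunit of the lid, had 1559 and 2248 counts, or 0.21 (0.12 to 0.31). Psmd1, the large scaffold of the base, had 2849 and 3897 counts, or 0.14 (0.069 to 0.21), and Psmd6 was the third with an interval above 0. The lowest was Psmd7, the partner of the deubiquitinase Psmd14, with 1565 and 1818 counts, or -0.097 (-0.20 to 0.0014). Psmd2, Psmd8 and Psmd11 also had negative log2 ratios, down to -0.074 in Psmd11, and their intervals held 0. Psmd3, Psmd4, Psmd13 and the ubiquitin-cleaving Psmd14 lay between 0.039 and 0.11, also with intervals that held 0. Thus the ubiquitin receptor Psmd4 and the largest cap gene by counts, Psmd2, with 3658 and 4499 counts, were not separated between the libraries at this depth.

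The immune subunits were low and differed in sign. Psmb10, the counterpart of Psmb7, had 310 and 419 counts, a log2 ratio of 0.12 (-0.094 to 0.34). Psmb8, the counterpart of Psmb5, had 39 and 47 counts, or -0.044 (-0.69 to 0.61). Psmb9, the counterpart of Psmb6, had 21 and 11 counts, or -1.21 (-2.45 to -0.13). Psmb9 had the lowest log2 ratio among the 47 members, on the smallest counts of the immune subunits. Over all genes, 9.16% were lower by more than log2 0.2 with an interval below 0.

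Levels of different genes were compared as CPM per kilobase of the longest coding transcript in GENCODE M21. On this scale Psmb5 was at 58.9 and 67.4 in the libraries labelled Ctrl and OE, and Psmb8 at 1.40 and 1.36, so that Psmb5 was 42.0-fold and 49.5-fold above its immune counterpart. Psmb6 stood 116-fold and 257-fold above Psmb9. Psmb7 was only 5.94-fold and 6.06-fold above Psmb10. Psmb10 thus held most of the immune signal, 83.8% (79.6% to 87.4%) and 87.8% (84.6% to 90.6%) of the summed counts of the 3 immune genes.

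The balance of immune to constitutive catalytic subunits does not depend on how the libraries are scaled. The 3 immune genes summed to 370 and 477 counts and the 3 constitutive ones to 3975 and 5197. The log2 of immune over constitutive counts was -3.43 in the Ctrl-labelled library and -3.45 in the OE-labelled library, a difference of -0.020 (-0.23 to 0.19). The difference was -0.24 (-0.89 to 0.43) for Psmb8 over Psmb5, -0.027 (-0.26 to 0.21) for Psmb10 over Psmb7 and -1.14 (-2.35 to -0.020) for Psmb9 over Psmb6. Only the last had an interval that left out 0. Psmb6 was lower as well, so this difference is smaller in size than the log2 ratio of Psmb9 alone.

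**Figure D2:**
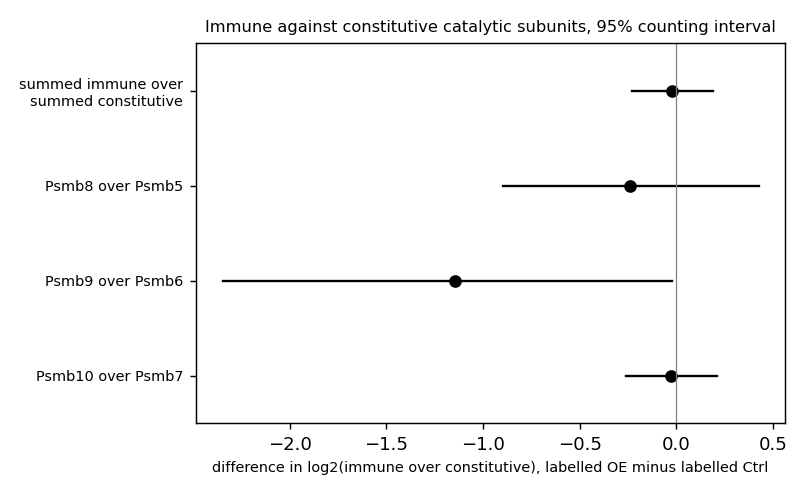
Difference between the libraries in the log2 ratio of immune over constitutive catalytic subunits (horizontal axis, labelled OE minus labelled Ctrl), for the summed genes and for each pair. Points are differences and lines 95% counting intervals. The summed difference is -0.020, and the pair of Psmb9 and Psmb6 lies apart at -1.14.

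Psmb9 lies in the MHC region of chromosome 17, back to back with Tap1, which encodes a subunit of the peptide transporter of MHC class I loading. Their RefSeq start sites are 226 bases apart on opposite strands, so the Psmb9 promoter printed above is largely that of Tap1 as well. Tap1 had 39 and 48 counts, a log2 ratio of -0.013 (-0.65 to 0.63). In GENCODE M21 exons of the 2 genes overlap by 212 bases on opposite strands. Exons of Psmb8 likewise overlap the antisense gene Gm20496 by 498 bases, and those of Psmb7 overlap Nek6 by 405. The kit keeps the strand, but whether the counting used it is not given in the sources used here.

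A list of 23 genes of MHC class I and the interferon response was examined beside the immune subunits. Their log2 ratios ran from -0.59 for Bst2, an antiviral tether, to 0.31 for Isg15, a ubiquitin-like protein, both on few counts. The median was -0.17, and 18 of the 23 were lower in the OE-labelled library (78.3%, against 49.0% of all genes). By more than log2 0.2, 8 were lower (34.8%, against 16.6% of all genes) and 3 higher (13.0%, against 17.9%). Of the 8, only 4 also had an interval below 0, and 16 of the 23 intervals held 0. Whatever the size, the interval lay below 0 for 6 (26.1%, against 14.4%) and above 0 for 1 (4.35%, against 15.8%). Among the genes with a mean of 100 counts or more the lowest were Ifitm3, an antiviral membrane protein, at -0.46 (-0.81 to -0.11), Gbp3, an interferon-induced GTPase, at -0.42 (-0.78 to -0.063), and H2-D1, a class I heavy chain, at -0.21 (-0.35 to -0.068). Ifit1, an interferon-induced RNA sensor, was at -0.46 (-0.91 to -0.017) on fewer counts. The highest of them were the peptide transporter subunit Tap2 at 0.28 (-0.012 to 0.58) and the loading factor Tapbp at 0.24 (0.055 to 0.43).

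Microglia, the immune cells of the brain, are known to express the immune subunits. Of 12 microglia markers, 11 were lower in the OE-labelled library (91.7%, against 49.0% of all genes), with a median log2 ratio of -0.13. The interval lay below 0 for 4 of the 12 and held 0 for 8. The summed level of the 12 was 386 CPM in the Ctrl-labelled library and 318 in the OE-labelled library. None of the 12 was at 0 in either library. Endothelial markers were lower too, 6 of 7 (85.7%), with a median of -0.13 and summed levels of 293 and 267 CPM. So were 7 of 8 astrocyte markers (87.5%), with a median of -0.060 and summed levels of 4400 and 4114 CPM. In both of these lists the interval lay below 0 for 3 genes and above 0 for 1. The part of these cell types in the Psmb9 and MHC class I values was not tested.

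Activators bind the ends of the core in place of the cap. Psme1 and Psme2 form the interferon-inducible activator PA28. Psme1 had 462 and 626 counts, a log2 ratio of 0.12 (-0.051 to 0.30), and Psme2 had 307 and 465 counts, or 0.28 (0.075 to 0.50). Psme3, the nuclear form of PA28, had 1572 and 2110 counts, or 0.11 (0.017 to 0.21). Psme4, the activator PA200, went the other way, with 1218 and 1319 counts, or -0.20 (-0.31 to -0.085). Psmf1, the inhibitor PI31, was also lower in the OE-labelled library, with 640 and 695 counts, or -0.19 (-0.35 to -0.037). Psme4 and Psmf1 were the only members with a mean of at least 100 counts, besides Psmb6, whose interval lay below 0.

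Psme2b, a near copy of Psme2, had 8.54 and 18.5 expected counts, a log2 ratio of 0.77 (-0.54 to 2.02). Of the 50-base words in its transcript, 68.7% also occur in Psme2, and of those of Psme2, 59.3% occur in Psme2b, so reads from those words match both genes and the split between them is uncertain. Their counts summed to 316 in the Ctrl-labelled library and 484 in the OE-labelled library, of which Psme2b received 2.70% (1.31% to 5.34%) and 3.82% (2.22% to 5.81%).

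Assembly chaperones help the core and the cap to form and are not part of the finished particle. Of the core chaperones, Psmg4 had 36 and 72 counts, a log2 ratio of 0.68 (0.090 to 1.31), while Psmg1, Psmg2 and Psmg3 lay between -0.050 and 0.084 with intervals that held 0. Psmg4 works together with Psmg3, which had 115 and 138 counts, or -0.050 (-0.42 to 0.32). Of the cap chaperones, Psmd9 had 354 and 502 counts, or 0.19 (-0.0084 to 0.39), and Psmd5 had 839 and 1147 counts, or 0.14 (0.0082 to 0.27). Psmd10, also known as gankyrin, had 270 and 290 counts, or -0.21 (-0.45 to 0.034). The chaperones were below the subunits they serve in level: the median was 8.57 and 8.42 CPM per kilobase for the core chaperones, against 56.2 and 58.0 for the core.

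The subunits known from testis and thymus were near the limit of detection. Psma8, which replaces Psma7 in spermatocytes, had 7 and 9 counts, and Psmb11 of the thymic cortex had 1 and 0 counts. No fold is given for Psmb11, since a count of 0 allows up to 3 counts. Psmc3ip, which the symbol pattern also matched, had 21 and 19 counts, a log2 ratio of -0.45 (-1.43 to 0.51).

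**Figure D3:**
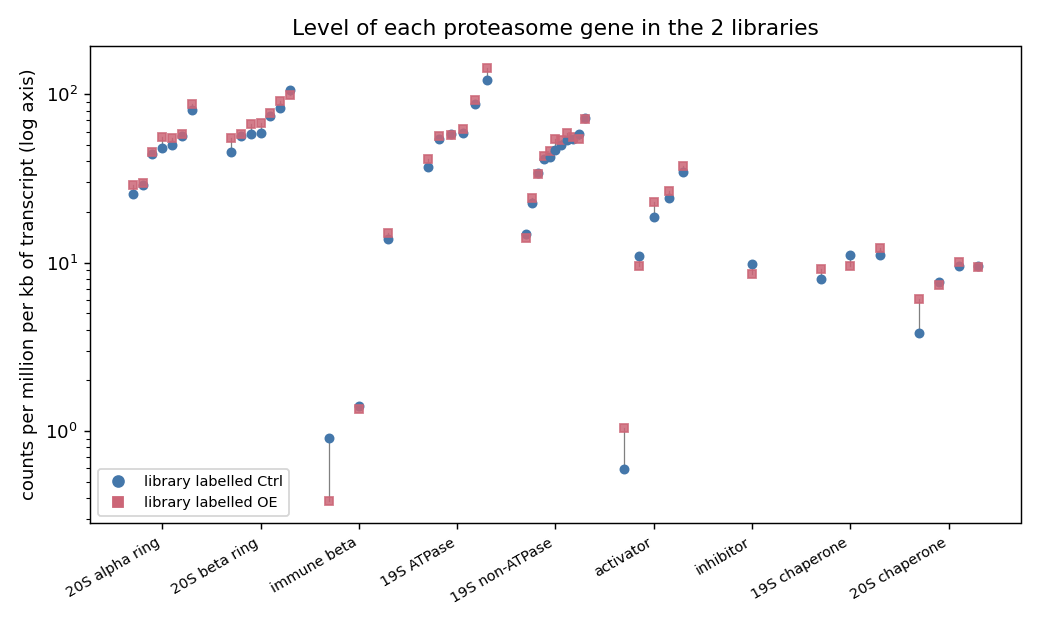
Level of each proteasome gene in CPM per kilobase of transcript (log axis), by class. Circles are the Ctrl-labelled library and squares the OE-labelled library, joined by a line for each gene. Core and cap genes lie between 14 and 144, well above Psmb8 and Psmb9 at 0.38 to 1.40.

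Within the core and the cap, whose subunits enter the particle in equal numbers, the mRNA levels were not equal. Across the 14 core genes the level ran from 25.6 CPM per kilobase for Psma2 to 106 for Psmb6 in the Ctrl-labelled library, a 4.14-fold range, and from 29.1 to 98.5 for the same genes in the OE-labelled library, a 3.39-fold range. Across the 17 cap genes it ran from 14.8 for Psmd11 to 121 for Psmc5, and from 14.1 to 144 for the same genes in the OE-labelled library. The median level of the cap, 53.6 and 54.2, was near that of the core, 56.2 and 58.0, on this scale of the longest transcripts. With the shortest transcripts the medians were further apart, 58.0 and 59.0 for the cap against 66.4 and 73.9 for the core. Transcript lengths are those of GENCODE M21 and may differ from the annotation behind the counts. With the shortest coding transcript of each gene in place of the longest, the range of the core was 4.15-fold and 3.99-fold, with Psma6 in place of Psmb6 at the top. The range of the cap, 8.16-fold and 10.2-fold with the longest transcripts, was 4.66-fold and 5.83-fold with the shortest, between the same genes.

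Partners of the proteasome in the ubiquitin system, a list of 34 genes, leaned to the same side as the core and the cap. Their median log2 ratio was 0.091, 28 of the 34 were higher in the OE-labelled library, or 82.4% against 51.0% of all genes, and 17 had an interval above 0, which is 50% against 15.8% of all genes. Higher by more than log2 0.2 were 5 genes, or 14.7% against 17.9% of all genes, and 0 were lower by as much, against 16.6%. Uchl1, a ubiquitin hydrolase abundant in neurons, had the highest log2 ratio, 0.40 (0.35 to 0.44), with 6712 and 10969 counts. Ubr4, a ubiquitin ligase, was at 0.25 (0.20 to 0.30), and Uba6, a ubiquitin-activating enzyme, at 0.24 (0.081 to 0.40). The cap subunits with other symbols were also among them: Shfm1, the smallest lid subunit, was at 0.25 (0.080 to 0.41), and Adrm1, a ubiquitin receptor, at 0.24 (0.088 to 0.39). The lowest were the ligases Ube3c at -0.060 (-0.16 to 0.038) and Huwe1 at -0.036 (-0.079 to 0.0076), followed by Rps27a, a fusion of ubiquitin with a ribosomal protein, at -0.019 (-0.084 to 0.046). Markers of neurons leaned to that side too, with 5 of 6 higher in the OE-labelled library (83.3%, against 51.0% of all genes). Their median log2 ratio was 0.12, and their summed levels were 4614 and 5064 CPM. The exception was Rbfox3, which was lower, at -0.21 (-0.32 to -0.095). The part of neurons in the values of the proteasome and its partners was not tested.

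**Figure D4:**
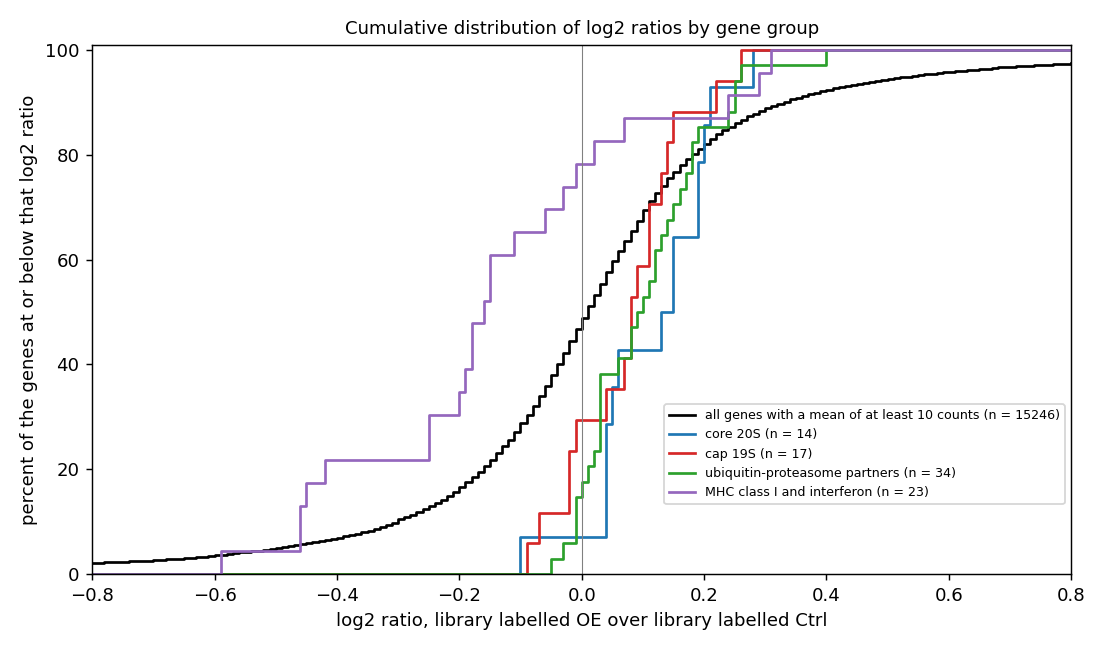
Cumulative percentage of genes (vertical axis) at or below a log2 ratio of OE over Ctrl, by the labels (horizontal axis), for 4 groups and for all 15246 genes. The curves of the core, the cap and the ubiquitin partners reach their medians of 0.13, 0.080 and 0.091 to the right of that of all genes at 0.0046, and the curve of MHC class I and interferon genes lies to the left, with a median of -0.17.

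Promoter sequences were found for 41 of the 49 members. The antioxidant element TGACNNNGC, searched on both strands, occurred in 6 of the 41, or 14.6%, against 14.0% of all genes in the promoter table. These were Psmb5, Psmb6, Psmc6, Psmd9, Psmd12 and Psme4, of which Psmb6 and Psme4 were lower in the OE-labelled library and the others higher. The median log2 ratio was 0.17 for these 6 and 0.090 for the 34 counted members without the element. The hexamer AGGTCA occurred in 9 members, or 22.0%, against 18.1% of all genes. Of these 9, Psma3, Psma6, Psma7, Psmb10, Psmc2, Psmc5 and Psmd6 had positive log2 ratios and Psmc4 and Psmd2 negative ones, with a median of 0.12, against 0.10 for the 31 counted members without it. The motif of interferon-induced genes, GAAA and GAAA with 2 free bases between them, was found in 5 members, or 12.2%, against 3.99% of all genes. These were Psmb3, Psmd4, Psmd9, Psme1 and Psmg4, and none of the 3 immune subunits. The median log2 ratio was 0.18 for these 5 and 0.080 for the 35 counted members without the motif. For Psmb8 and Psmb9 the window lies after the start in GENCODE M21, so sequence before that start was not searched. The windows in which a motif matched in Psmd9, Psme1 and Psmd13 also lie wholly after the GENCODE M21 start. So do some of the matched windows of Psma6, which hold all its CCGGAAG matches, and of Psmc2. TTCNNNGAA, which reads the same on both strands, was found in Psmb8, Psmd2 and Psmg1, or 7.32%, against 9.55%. The median log2 ratio was -0.017 for these 3 and 0.11 for the 37 counted members without it. CCGGAAG, the core of ETS factor sites, was found in 14 members, or 34.1%, against 9.93% of all genes. The median log2 ratio was 0.075 for the 14 members with it and 0.12 for the 26 counted members without it. A match describes letters in this window and not a bound site. Since the motifs were chosen after their counts were seen, these shares are descriptive and were not tested.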

How the data were processed

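The authors sent ventral midbrain tissue to a sequencing company, which prepared stranded libraries of polyadenylated RNA, sequenced 50 bp from each end and applied its in-house pipeline. The deposited values are expected counts per gene, estimated by RSEM and not scaled between libraries, for 31252 gene rows in 2 libraries. The genome build was mm10 per the submitters' processing notes. The aligner and the annotation are not given in the sources used here. Columns were assigned to samples by the number shared with the sample title. Of the values, zeros included, 95.4% were whole exactly as deposited, with no decimal other than 0.

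Counts were scaled with TMM (edgeR 4.0.16 in R 4.3.3), with factors of 1.01 and 0.995. A pseudocount of 0.5 was added to normalized counts before log2 ratios were taken. Counts and medians over genes rest on the 15246 genes that averaged 10 counts or more. Intervals (95%) were exact: Clopper-Pearson for the share of a gene's rounded counts that came from each library, and conditional odds ratio intervals for pairs of genes (scipy 1.17.1). They cover counting error only and compare libraries, not conditions. With 1 library per group no p-value was computed. The calculation of ratios and intervals was tested on simulated Poisson counts. These held no variation between mice or dissections, so the test checks the calculation and not the comparison of the libraries.

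The members and lists were chosen with earlier results of these data known. Named were the catalytic pairs, the activators, Psmf1, the extremes of each class and members past log2 0.2, and the extremes of the other lists. The values of 1 gene named by this rule are not reported here. Promoter motifs were chosen after their counts were seen. In the list of ubiquitin partners, Paaf1 matched no row. Of the 49 members, 27 shared no 50-base word with transcripts of other genes in GENCODE M21 (GRCm38), and 12 shared over 10% of theirs. Figures were drawn with matplotlib 3.10.9.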

Additional observations from a re-analysis of the deposited data

How the results depend on the processing

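No paired analysis was possible because neither label has a second library. Scaling with total counts, the upper quartile or DESeq2 size factors (1.42.0) kept every sign of Nr2f2 (-1.08 to -1.06), of the median of all members (0.069 to 0.098), of the core (0.12 to 0.15) and of the cap (0.065 to 0.094). So did a pseudocount of 5 and, for the medians, the other count minimums and the cap with its chaperones. The median of all genes lay between -0.011 and 0.018 under these settings. No member past log2 0.2 changed sign. The 2 members lower by more than log2 0.2 became 4 with total counts, where Psme4 and Psmf1 passed, and 1 with the upper quartile, with a mean of at least 100 counts, or where the interval also had to exclude 0. Counting intervals that excluded 0, whatever the size, gave 18 higher and 4 lower with TMM and were not counted with the other scalings. Some of them nearly reached 0: those of Psmc1 and Psmd6 began at 0.0026 and 0.0022, and that of Psmb6 ended at -0.00032. The 7 higher members ranged from 5 to 9 under the other settings. The difference of immune to constitutive subunits, -0.020 from summed counts, was -0.24 as the median of the 3 pairs, since the sum is dominated by Psmb10. Psmb9, Psmb8 and Psme2b have too few counts for a precise ratio.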

Other observations

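Sequence shared with other genes was uneven among the members. Of the 50-base words in the longest coding transcript, 69.3% for Psme2b, 59.3% for Psme2, 57.1% for Psmb5, 55.8% for Psmb3, 54.5% for Psma5, 26.4% for Psmd2, 25.6% for Psma4, 22.7% for Psmg3 and 22.0% for Psma3 also occur in transcripts of other genes of GENCODE M21, while Psmb6, Psmb7 and Psmc5 had at most 2.67%. Among the 26 counted members with no shared word, 17 were higher in the OE-labelled library and the median log2 ratio was 0.058. Over all genes 51.0% were higher, with a median of 0.0046. Exons of 11 members overlap those of a gene on the opposite strand and 4 those of a gene on the same strand.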
